A study of Homo sapiens with 8 samples.

Results

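The 10 genes described here encode chaperones, folding enzymes and degradation factors of the endoplasmic reticulum (ER), together with a transcription factor that controls them: HSPA5, HSP90B1, PDIA4, CALR, XBP1, DNAJB9, SDF2L1, HERPUD1, EDEM1 and SEL1L. They are 10 of the 18377 genes that the arrays measured, and a gene was taken as a row annotated to exactly 1 symbol, which for each of the 10 was a single row. The measurements come from 8 arrays of the Affymetrix Human Gene 1.0 ST type, 4 groups of 2 biological replicates, as robust multi-average (RMA) values on the log2 scale. All groups were stable lines of SHSY5Y, a human neuroblastoma cell line, carrying a pLKO.1 lentiviral vector selected with puromycin. The lines are called PLKO and V71 after the code in the sample titles. Cells of both conditions grew on laminin. The growth condition NDF was medium with 10% serum. The differentiation condition DF was 10 µM retinoic acid in medium with serum for 5 days, followed by 3 days without serum in 2 nM BDNF. The 4 groups were therefore PLKO NDF, V71 NDF, PLKO DF and V71 DF. By their treatment label the PLKO samples carry the shRNA and the V71 samples are the control, while the methods of the study name pLKO.1-Puro as its control vector. The target of the shRNA is not analysed here and does not check the labels, so every difference between lines is given as V71 minus PLKO and neither line is called the control. Each condition was studied in 1 stable line of each kind, and differences between the lines cannot be told apart from differences between the cells that were selected.

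Proteins that enter the secretory pathway fold in the ER with the help of lumenal chaperones, and unfolded proteins that build up there start the unfolded protein response. Its sensors are the kinase and nuclease IRE1, which splices the mRNA of XBP1, the kinase PERK, which lowers translation, and ATF6, a membrane-bound transcription factor that is released by cleavage in the Golgi. XBP1 and ATF6 raise chaperone genes and the genes of ER-associated degradation, which carries misfolded proteins to the proteasome. Cells that secrete much protein also need these genes without stress. A row of the array sums the RNA of a gene, and the splicing of XBP1 was not measured here.

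Many of these genes are known to be controlled through the ER stress response element (ERSE), in which a site for the factor NF-Y and a site for ATF6 stand a fixed distance apart. The promoters below are the 250 bases before the annotated start of 7 of the genes, from RefSeq (GRCh38.p14), shown because they hold the elements by which the family is known, or, for DNAJB9, because the gene moved the other way. The sequences are written 5′ to 3′ on the strand of the gene. Capitals mark each exact match, on either strand, to ERSE (CCAAT and CCACG with any 9 bases between them) or to the shorter ERSE-II (ATTGG and CCACG with any 1 base between them). HSPA5 lies on the minus strand and its window is chr9:125241344-125241593. The window of HSP90B1 is chr12:103930160-103930409 on the plus strand, that of CALR is chr19:12938359-12938608 on the plus strand, and that of XBP1 is chr22:28800570-28800819 on the minus strand. The window of HERPUD1 is chr16:56931892-56932141, that of SDF2L1 is chr22:21642052-21642301 and that of DNAJB9 is chr7:108569624-108569873, all on the plus strand.
HSPA5: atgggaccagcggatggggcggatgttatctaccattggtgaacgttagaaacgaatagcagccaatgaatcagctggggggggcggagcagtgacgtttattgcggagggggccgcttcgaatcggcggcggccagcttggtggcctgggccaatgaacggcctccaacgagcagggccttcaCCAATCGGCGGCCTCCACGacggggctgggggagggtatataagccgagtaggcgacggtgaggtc
HSP90B1: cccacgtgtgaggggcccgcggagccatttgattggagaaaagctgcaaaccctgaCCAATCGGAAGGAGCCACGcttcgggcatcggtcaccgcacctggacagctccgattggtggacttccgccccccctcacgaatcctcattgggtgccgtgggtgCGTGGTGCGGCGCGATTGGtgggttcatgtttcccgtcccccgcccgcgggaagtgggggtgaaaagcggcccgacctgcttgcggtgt
CALR: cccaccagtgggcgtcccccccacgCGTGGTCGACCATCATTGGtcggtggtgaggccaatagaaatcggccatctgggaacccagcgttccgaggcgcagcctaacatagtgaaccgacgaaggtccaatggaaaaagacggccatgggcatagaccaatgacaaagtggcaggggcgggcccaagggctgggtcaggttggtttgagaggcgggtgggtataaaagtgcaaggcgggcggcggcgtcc
XBP1: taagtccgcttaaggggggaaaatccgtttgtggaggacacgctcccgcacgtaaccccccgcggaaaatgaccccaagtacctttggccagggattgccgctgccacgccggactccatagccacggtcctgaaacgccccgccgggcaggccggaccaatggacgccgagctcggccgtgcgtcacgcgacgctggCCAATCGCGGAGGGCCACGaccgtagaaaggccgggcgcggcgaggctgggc
HERPUD1: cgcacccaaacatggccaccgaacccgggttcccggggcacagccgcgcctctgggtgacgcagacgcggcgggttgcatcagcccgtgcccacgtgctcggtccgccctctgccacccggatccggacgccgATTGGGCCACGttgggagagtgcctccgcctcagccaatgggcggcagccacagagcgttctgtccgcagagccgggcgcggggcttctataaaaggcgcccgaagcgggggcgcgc
SDF2L1: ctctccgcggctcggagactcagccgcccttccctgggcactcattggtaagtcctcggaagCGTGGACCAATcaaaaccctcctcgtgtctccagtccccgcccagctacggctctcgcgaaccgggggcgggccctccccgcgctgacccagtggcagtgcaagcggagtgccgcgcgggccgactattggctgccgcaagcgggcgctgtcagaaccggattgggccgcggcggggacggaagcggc
DNAJB9: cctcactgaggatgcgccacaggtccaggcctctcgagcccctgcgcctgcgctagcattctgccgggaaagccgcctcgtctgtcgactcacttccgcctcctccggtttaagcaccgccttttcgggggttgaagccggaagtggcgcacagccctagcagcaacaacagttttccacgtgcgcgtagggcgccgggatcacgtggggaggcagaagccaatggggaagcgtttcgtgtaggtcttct

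The exact ERSE was found in the promoters of 4 of the 10 genes, the chaperones HSPA5, HSP90B1 and CALR and the transcription factor XBP1. The search covered both strands from 250 bases before to 50 bases after the start, and 27 of 35116 RefSeq promoters of this length, 0.0769%, hold an exact ERSE. In HSPA5 it runs from position -66 to -48, counted from the start, which is position 0. HSP90B1 holds 2 matches, from -194 to -176 on the strand of the gene and from -89 to -71 on the opposite strand. The match of CALR runs from -225 to -207 on the opposite strand, and that of XBP1 from -52 to -34. XBP1 has a further RefSeq promoter without the element. The family is known by these elements, so the comparison with all promoters is not a test.

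The exact ERSE-II was found in HERPUD1, from -117 to -107, and in SDF2L1, from -188 to -178 on the opposite strand. Of all promoters 19, or 0.0541%, hold it. ERSE and ERSE-II both carry CCACG, so their matches can overlap. With up to 1 mismatch, a setting chosen after the exact matches were seen, ERSE was found in 7 of the 10 genes and in 1.55% of all promoters, and ERSE-II in 4 of the genes and in 1.23% of all promoters. The XBP1 motif UPRE, TGACGTGG, whose last letters are the reverse complement of CCACG, had no exact match in the 10 genes and stands in 0.729% of all promoters. With up to 1 mismatch UPRE was found in 3 of the 10 genes, HSP90B1, DNAJB9 and PDIA4, and in 17.2% of all promoters. No exact match of the 3 motifs was found in DNAJB9, PDIA4, EDEM1 or SEL1L, which says only that these letters are not in the windows searched. The matches are a description of sequence, and binding was not measured.

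**Figure D1:**
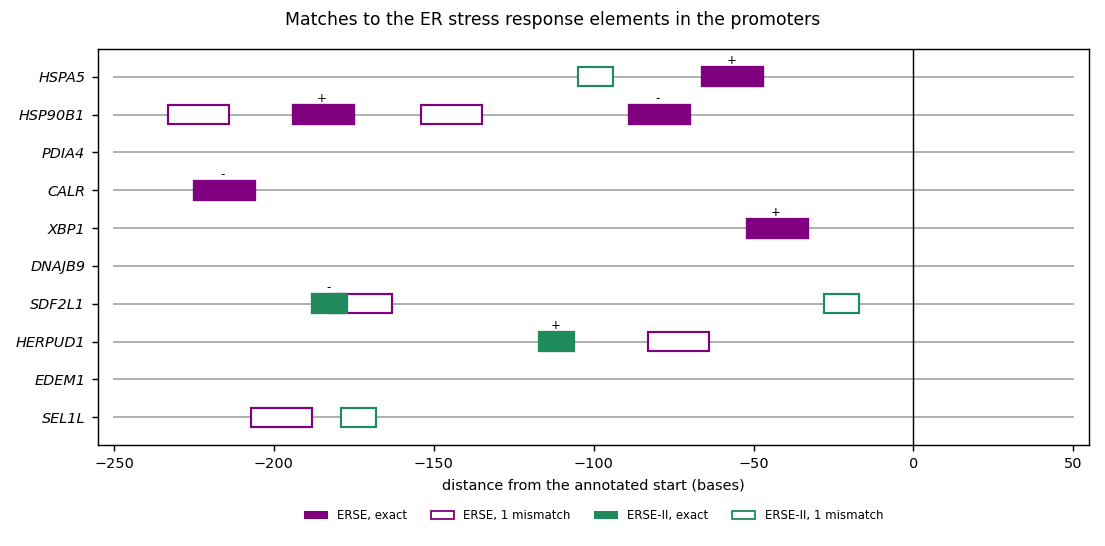
Positions of matches to ERSE (purple) and ERSE-II (green) in the promoters of the 10 genes, in bases from the annotated start on the x axis. Filled boxes are exact matches, with their strand above, and open boxes have 1 mismatch; HSPA5, HSP90B1, CALR and XBP1 hold an exact ERSE, and HERPUD1 and SDF2L1 an exact ERSE-II.

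The arrays were close to each other. The median value of an array lay between 4.60 and 4.68, and replicates correlated with a Spearman's rho of 0.9947 or more, against 0.9931 or less for arrays of different groups. The noradrenergic identity of the cells was seen in 11 of 12 measured markers, which lay above the median gene on all arrays. Of 20 markers of the substrate-adherent (S-type) neuroblastoma cell, which SHSY5Y cultures can hold, 12 lay below the median gene on all arrays and 4 above it. The arrays measure whole cultures, in which fewer cells of a type and less RNA per cell cannot be told apart.

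Upon differentiation the values of HSPA5, HSP90B1, PDIA4 and CALR, which fold proteins in the ER lumen, lay lower, and those of the co-chaperone DNAJB9 higher, without overlap in both lines. In the PLKO line PDIA4 and CALR fell and DNAJB9 rose, and in the V71 line HSPA5 and XBP1 fell and DNAJB9 rose. These changes were small, between 0.28 and 0.38 on the log2 scale, and 0 of the 10 genes were called at an adjusted p (Benjamini-Hochberg over all rows, limma) under 0.05 with a fold of at least 1.5. Of all genes, 7.04% were called by this rule in PLKO and 7.53% in V71. At the adjusted p alone, 3 of the 10 passed in each line, against 15.8% of all genes in PLKO and 16.5% in V71. By direction, 2 fell and 1 rose in each line, where 7.77% of all genes fell and 7.98% rose in PLKO and 7.22% fell and 9.29% rose in V71. At an unadjusted p under 0.05 there were 8 of 10 in PLKO, against 28% of all genes, and 6 of 10 in V71, against 29.1%. All of the 10 but SDF2L1 lay above the median gene on all arrays, while the shares of all genes include dim rows. The 10 genes were chosen with earlier results of these data known, so these comparisons are not a test. The median change of the 10 genes was -0.23 in PLKO and -0.21 in V71, beside 0.013 and -0.0036 over all genes.

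These counts depended on single arrays. In PLKO, 0 genes passed without PLKO NDF replicate 2 or without PLKO NDF replicate 3, and 1, DNAJB9, without PLKO DF replicate 1. In V71, 0 passed without V71 NDF replicate 3 or V71 DF replicate 2, and 1 passed without PLKO NDF replicate 2, PLKO NDF replicate 3, V71 NDF replicate 2 or V71 DF replicate 1. Of 20 alternatives, DNAJB9 passed in 17, PDIA4 in 14 and CALR in 14 in PLKO, and HSPA5 passed in 14, XBP1 in 13 and DNAJB9 in 6 in V71. The sign of the change stood in all 20 alternatives for HSPA5, HSP90B1, PDIA4, CALR, XBP1 and DNAJB9 in both lines. For these genes NDF and DF arrays did not overlap, so leaving out 1 array could not turn the sign. Alternatives that alter only the variance model or the adjustment of p leave the difference as it is. The constant sign is therefore not evidence of stability.

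**Figure D2:**
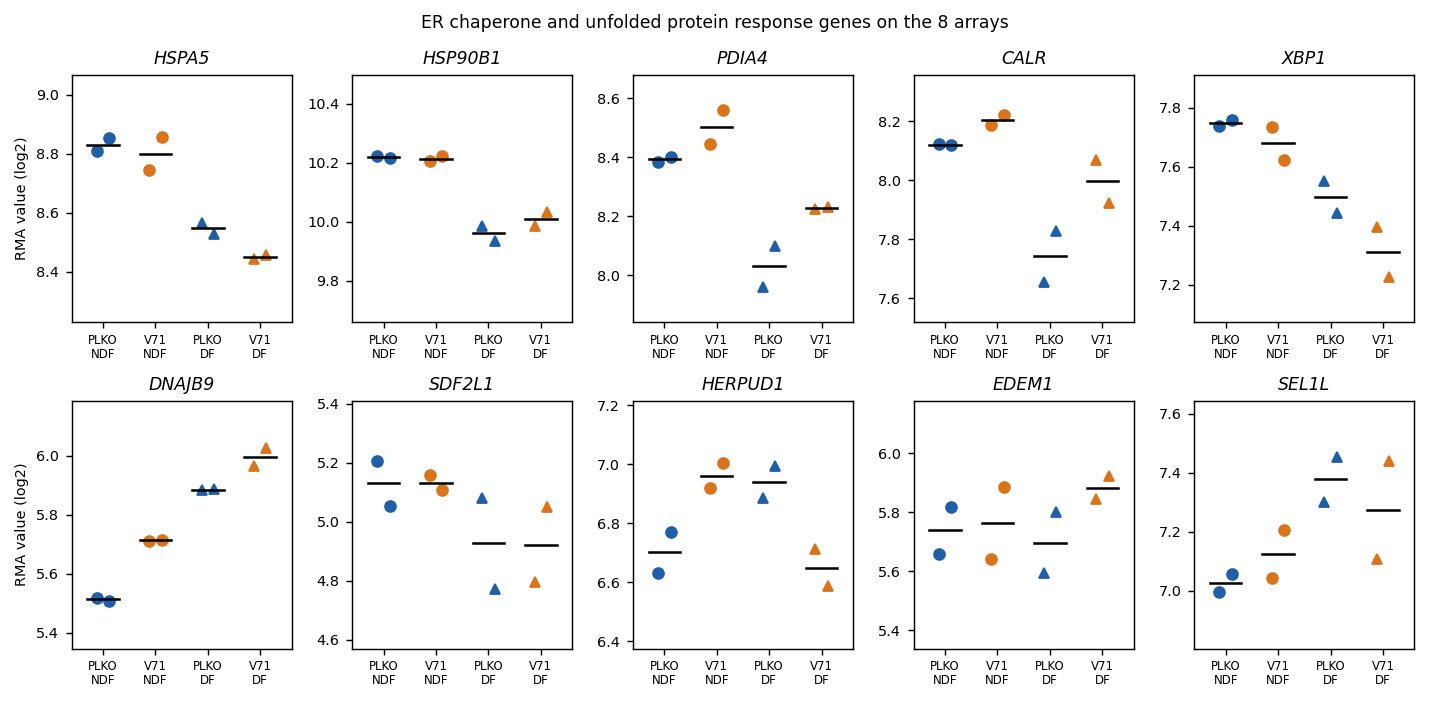
Deposited RMA value (log2, y axis) of the 10 genes on each of the 8 arrays, by group on the x axis. PLKO is drawn in blue and V71 in orange, with circles for NDF, triangles for DF and a black bar for the mean of each group; HSPA5, HSP90B1, PDIA4, CALR and XBP1 sit lower in DF than in NDF in both lines and DNAJB9 higher.

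HSPA5, also called BiP, is the HSP70 chaperone of the ER lumen and holds the stress sensors inactive. Its values were 8.81 and 8.85 in PLKO NDF, 8.74 and 8.86 in V71 NDF, 8.57 and 8.53 in PLKO DF, and 8.44 and 8.46 in V71 DF. All 4 NDF arrays lay above all 4 DF arrays. HSPA5 fell by 0.35 in V71 (SE 0.08, adjusted p = 0.0208, limma). In PLKO the difference was -0.28 (SE 0.08, adjusted p = 0.0528, limma), which did not pass. V71 minus PLKO was -0.03 in NDF (95% interval -0.22 to 0.15) and -0.10 in DF (95% interval -0.28 to 0.09), neither passing.

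HSP90B1 encodes GRP94, the HSP90 chaperone of the ER, which folds integrins and other client proteins. Its values were 10.22 on both arrays of PLKO NDF, 10.21 and 10.22 in V71 NDF, 9.99 and 9.94 in PLKO DF, and 9.99 and 10.03 in V71 DF. The groups of each line did not overlap between NDF and DF. The difference upon differentiation was -0.26 in PLKO (SE 0.08, adjusted p = 0.0646, limma) and -0.21 in V71 (SE 0.08, adjusted p = 0.137, limma), neither passing. Between the lines the values overlapped in NDF, and V71 minus PLKO was -0.0046 in NDF (95% interval -0.18 to 0.17) and 0.05 in DF (95% interval -0.13 to 0.23).

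PDIA4 is a protein disulfide isomerase, which makes and rearranges disulfide bonds. Its values were 8.38 and 8.40 in PLKO NDF, 8.45 and 8.56 in V71 NDF, 7.96 and 8.10 in PLKO DF, and 8.22 and 8.23 in V71 DF. The lowest arrays were those of PLKO DF. PDIA4 fell by 0.36 in PLKO (SE 0.09, adjusted p = 0.0241, limma), and the difference in V71 was -0.27 (SE 0.09, adjusted p = 0.075, limma). The V71 values lay above the PLKO values in both conditions, by 0.11 in NDF (adjusted p = 0.699, limma) and 0.20 in DF (adjusted p = 0.29, limma), which did not pass.

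CALR is calreticulin, the calcium-binding lectin that retains glycoproteins until they fold. Its values were 8.12 on both arrays of PLKO NDF, 8.19 and 8.22 in V71 NDF, 7.65 and 7.83 in PLKO DF, and 8.07 and 7.92 in V71 DF. As with PDIA4, the PLKO DF arrays were the lowest. CALR fell by 0.38 in PLKO (SE 0.09, adjusted p = 0.0268, limma), and in V71 the difference was -0.21 (SE 0.09, adjusted p = 0.21, limma). In DF the lines stood apart without overlap, by 0.26 (SE 0.09, adjusted p = 0.192, limma), and this did not pass.

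XBP1, the transcription factor of the IRE1 arm, had values of 7.74 and 7.76 in PLKO NDF, 7.73 and 7.62 in V71 NDF, 7.55 and 7.44 in PLKO DF, and 7.39 and 7.23 in V71 DF. The V71 DF arrays were the lowest of the 4 groups. XBP1 fell by 0.37 in V71 (SE 0.09, adjusted p = 0.0289, limma), and the difference in PLKO was -0.25 (SE 0.09, adjusted p = 0.128, limma). V71 minus PLKO was -0.07 in NDF and -0.19 in DF, with adjusted p of 0.852 and 0.368 (limma).

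DNAJB9 encodes ERdj4, a J-domain co-chaperone of HSPA5 that acts in degradation and represses IRE1. Its values were 5.52 and 5.51 in PLKO NDF, 5.71 on both arrays of V71 NDF, 5.88 and 5.89 in PLKO DF, and 5.96 and 6.02 in V71 DF. The 4 groups did not overlap, in that order from lowest to highest. DNAJB9 rose in PLKO by 0.37 (SE 0.08, adjusted p = 0.0125, limma) and in V71 by 0.28 (SE 0.08, adjusted p = 0.0446, limma). The change in V71 no longer passed when any 1 of the 8 arrays was left out, with values from 0.25 to 0.31 and adjusted p from 0.0504 to 0.182. V71 minus PLKO was 0.20 in NDF (SE 0.08, adjusted p = 0.304, limma) and 0.11 in DF (SE 0.08, adjusted p = 0.572, limma), neither passing.

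SDF2L1, a lumenal protein that works with HSPA5 and its co-chaperones, varied more between replicates. Its values lay between 5.05 and 5.21 on the NDF arrays and between 4.77 and 5.08 on the DF arrays, where the replicates of each group lay further apart than in NDF. The difference upon differentiation was -0.20 in PLKO (95% interval -0.49 to 0.08) and -0.21 in V71 (95% interval -0.49 to 0.07), neither passing. In PLKO it was -0.36 without PLKO DF replicate 1, -0.049 without PLKO DF replicate 2 and -0.13 without PLKO NDF replicate 2, and in V71 it was -0.082 without V71 DF replicate 1 and -0.34 without V71 DF replicate 2. Between the lines it was 0.0029 in NDF (95% interval -0.28 to 0.29) and -0.0042 in DF (95% interval -0.29 to 0.28).

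HERPUD1 encodes a membrane protein of the degradation complex and is a known early target of the response. Its values were 6.63 and 6.77 in PLKO NDF, 6.92 and 7.00 in V71 NDF, 6.89 and 6.99 in PLKO DF, and 6.71 and 6.59 in V71 DF. In PLKO the DF arrays lay above the NDF arrays and in V71 below them, in each case without overlap. The difference was 0.24 in PLKO (SE 0.09, adjusted p = 0.151, limma) and -0.31 in V71 (SE 0.09, adjusted p = 0.0601, limma). The interaction, which is the change in V71 minus that in PLKO, was -0.55 (SE 0.13, adjusted p = 0.128, limma), with an unadjusted p of 0.00228 from the limma fit. This does not pass over all rows. Of all genes, 4.17% ran in opposite directions in the lines without overlap in this way.

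EDEM1, a lectin-like mannosidase that marks glycoproteins for degradation, had values from 5.59 to 5.92, and its groups overlapped between NDF and DF in both lines. The difference was -0.04 in PLKO (95% interval -0.30 to 0.22) and 0.12 in V71 (95% interval -0.14 to 0.38). SEL1L, the adaptor of the ubiquitin ligase HRD1, had values of 6.99 and 7.06 in PLKO NDF, 7.04 and 7.21 in V71 NDF, 7.30 and 7.45 in PLKO DF, and 7.11 and 7.44 in V71 DF. In PLKO the DF arrays lay above the NDF arrays, and in V71 the groups overlapped. The difference was 0.35 in PLKO (SE 0.12, adjusted p = 0.0978, limma) and 0.15 in V71 (SE 0.12, adjusted p = 0.553, limma).

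**Figure D3:**
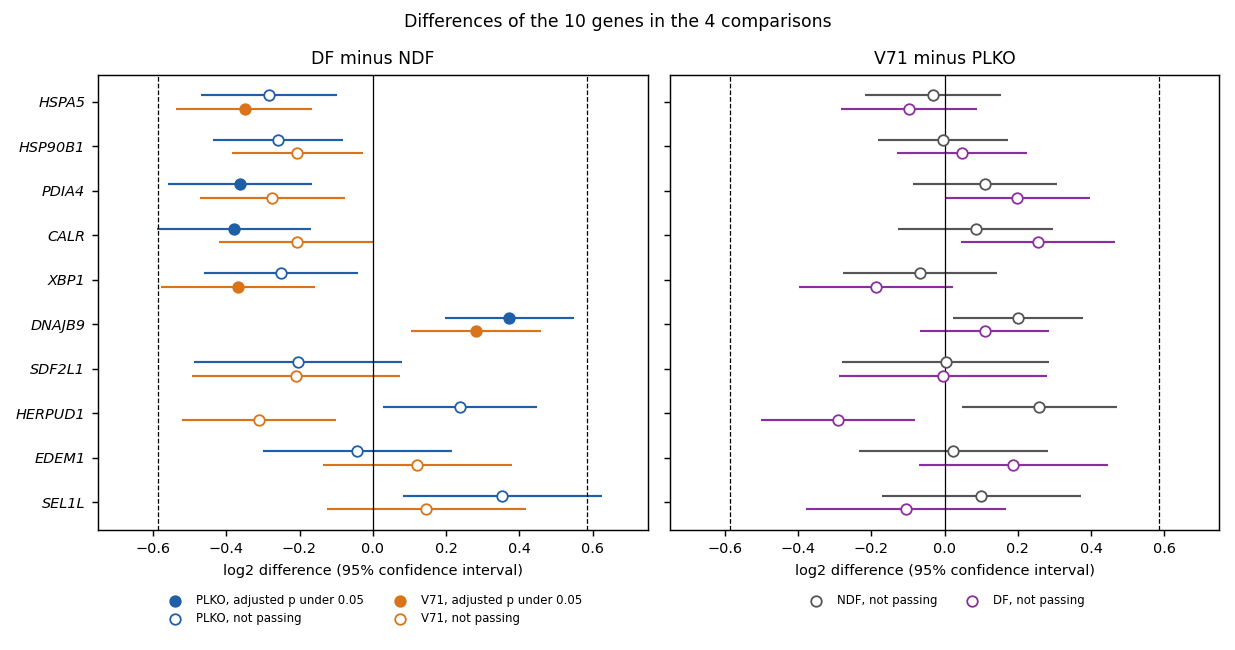
Log2 difference (x axis) of the 10 genes with its 95% confidence interval, DF minus NDF in each line on the left and V71 minus PLKO in each condition on the right. Filled points passed an adjusted p of 0.05, open points did not, and dashed lines mark a fold of 1.5; the 6 filled points are PDIA4, CALR and DNAJB9 in PLKO and HSPA5, XBP1 and DNAJB9 in V71.

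The mean of the changes in PLKO and V71, a contrast chosen after the values were seen, sets 4 NDF arrays against 4 DF arrays. In it 6 of the 10 genes passed, against 25.8% of all genes. Of the 6, 5 fell and 1 rose, against 11.8% of all genes that fell and 14% that rose, and 0 were called at a fold of 1.5, against 6.8% of all genes. HSPA5 fell by 0.32 (SE 0.06, adjusted p = 0.00355, limma) and PDIA4 by 0.32 (SE 0.06, adjusted p = 0.0049, limma). XBP1 fell by 0.31 and CALR by 0.29, with adjusted p of 0.00805 and 0.0108 (limma). HSP90B1 fell by 0.23 (SE 0.06, adjusted p = 0.0151, limma). DNAJB9 rose by 0.33 (SE 0.06, adjusted p = 0.00227, limma). SEL1L stood at 0.25 (adjusted p = 0.0713, limma), SDF2L1 at -0.21 (adjusted p = 0.152, limma), HERPUD1 at -0.04 and EDEM1 at 0.04. Of the 10 genes, 8 had the same sign in both lines, and so had 68.4% of all genes. NDF and DF arrays did not overlap for 8 of 10 genes in each line, against 55.1% of all genes in PLKO and 55% in V71.

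Between 5 and 7 of the 10 genes passed in this mean when an array was left out, and HSPA5, XBP1, PDIA4, CALR and DNAJB9 passed without any of the 8 arrays. HSP90B1 did not pass without PLKO NDF replicate 2 or PLKO NDF replicate 3, with quantile normalization again or with cyclic loess, and CALR did not pass without moderation of the variance.

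No difference between the lines passed in these genes. V71 minus PLKO gave 0 called genes of 10 in NDF, against 2.15% of all genes, and 0 in DF, against 3.06%. At the adjusted p alone it was 0 of 10 in both conditions, against 3.41% and 6.51%, and at an unadjusted p under 0.05 it was 2 of 10 in NDF, against 15% of all genes, and 3 of 10 in DF, against 19.5%. The 2 in NDF were DNAJB9 and HERPUD1, both higher in V71, and the 3 in DF were HERPUD1, lower in V71, and PDIA4 and CALR, higher in V71. HERPUD1 differed by 0.26 in NDF (95% interval 0.05 to 0.47, adjusted p = 0.258, limma) and by -0.29 in DF (95% interval -0.50 to -0.08, adjusted p = 0.134, limma). The lines did not overlap for 5 of 10 genes in NDF and 7 of 10 in DF, against 47.5% and 45.7% of all genes. In the mean of NDF and DF, also chosen after the values were seen, 0 of 10 passed at the adjusted p, against 9.32% of all genes. The median difference was 0.05 in NDF and 0.02 in DF, beside 0.012 and 0.0054 over all genes.

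The interaction passed for 0 of 10 genes at the adjusted p, against 1.39% of all genes by either rule, and for 1, HERPUD1, at an unadjusted p under 0.05, against 10.2%. The intervals of the interaction were wide, from -0.33 to 0.20 for HSPA5 and from -0.13 to 0.47 for CALR. With 2 arrays per group, differences in response between the lines within these intervals cannot be told from 0.

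The 138 measured genes of 8 further lists were described beside the 10: 7 lists cover the secretory machinery of the ER and its stress response, and 1, with 15 measured genes, the chaperones of the cytosol and mitochondria. Upon differentiation 6 of the 138 fell and 9 rose in PLKO at the adjusted p, 10.9% in all, and 6 fell and 7 rose in V71, 9.42% in all, beside the 15.8% and 16.5% of all genes given above. The median changes were 0.04 in PLKO and 0.01 in V71. The list medians lay between -0.08 and 0.18 in the lines, beside -0.23 and -0.21 for the 10 genes.

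**Figure D4:**
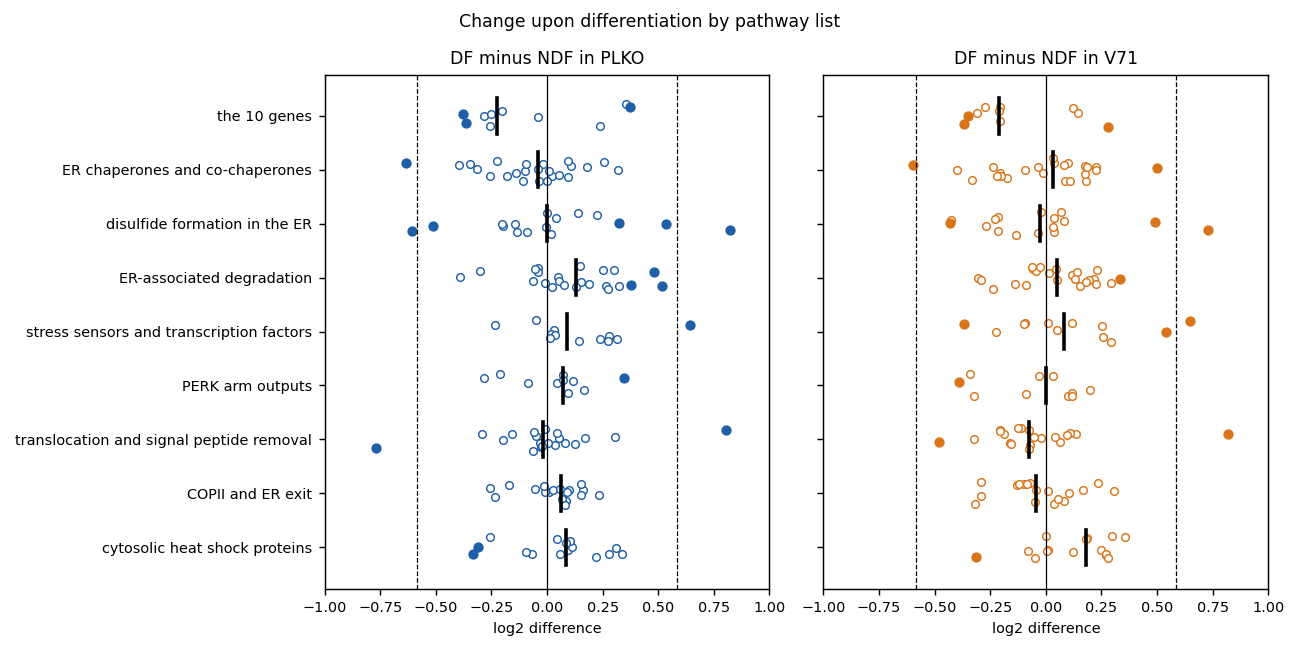
Log2 change upon differentiation (x axis) of each measured gene, by list on the y axis, in PLKO on the left and V71 on the right. Filled points passed an adjusted p of 0.05, dashed lines mark a fold of 1.5 and black bars are medians, which lie at -0.23 and -0.21 for the 10 genes and near 0 for most lists.

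Of 24 other ER chaperones and co-chaperones, 1 fell in PLKO and 1 fell and 1 rose in V71. MANF, a secreted factor that binds HSPA5 and is induced by ER stress, had values of 7.76 and 7.69 in PLKO NDF, 6.99 and 7.20 in PLKO DF, 7.64 and 7.61 in V71 NDF, and 7.42 and 7.35 in V71 DF. It was lower in DF than in NDF without overlap in both lines, and fell by 0.63 in PLKO (SE 0.09, adjusted p = 0.00184, limma). Without PLKO DF replicate 1 its change was -0.53, still past the adjusted p but under the fold of 1.5. FKBP14, a prolyl isomerase that acts on collagen, fell by 0.60 in V71 (SE 0.13, adjusted p = 0.0116, limma), a call that ends without V71 NDF replicate 2 (-0.49, adjusted p = 0.0902), without V71 DF replicate 1 (-0.42, adjusted p = 0.078) or without moderation of the variance (adjusted p = 0.126).

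PPIC, the cyclophilin C isomerase, was the only gene of the lists that passed in the interaction. Its values were 4.30 and 4.25 in PLKO NDF, 3.84 and 3.73 in V71 NDF, 3.96 and 4.08 in PLKO DF, and 4.25 and 4.32 in V71 DF. They lay between the 27th and 36th percentile of genes, below the median gene on all arrays. The PLKO arrays were lower and the V71 arrays higher in DF than in NDF. The interaction was 0.76 (SE 0.12, adjusted p = 0.0229, limma). V71 minus PLKO in NDF was -0.49 (adjusted p = 0.0183, limma), and PPIC rose by 0.50 upon differentiation in V71 (adjusted p = 0.00439, limma). The interaction did not pass without moderation (adjusted p = 0.181). Leaving out 1 array at a time, it passed without PLKO DF replicate 2 (adjusted p = 0.0356) and not without any of the other 7 arrays, with values from 0.70 to 0.81 and adjusted p from 0.0505 to 0.136.

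Disulfide formation went both ways upon differentiation. Of 16 measured genes, 3 rose and 2 fell in PLKO, and 2 rose and 1 fell in V71. ERO1B, the oxidase that recharges disulfide isomerases, lay between the 27th and 41st percentile of genes, below the median gene on all arrays. It had values of 3.74 and 3.94 in PLKO NDF and 4.68 and 4.66 in PLKO DF, and rose by 0.82 (SE 0.10, adjusted p = 0.000389, limma). In V71 it rose by 0.49 (adjusted p = 0.0083, limma). PRDX4, the ER peroxiredoxin, fell by 0.61 in PLKO (SE 0.09, adjusted p = 0.00184, limma) and by 0.43 in V71 (adjusted p = 0.0123, limma). Its change in PLKO was under the fold of 1.5 without PLKO NDF replicate 3 (-0.55) or PLKO DF replicate 1 (-0.55). TMX4, a membrane-bound reductase, rose by 0.73 in V71 (SE 0.09, adjusted p = 0.000567, limma) and by 0.53 in PLKO (SE 0.09, adjusted p = 0.00366, limma), the latter under the fold of 1.5.

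TMX4 also parted the lines. In NDF it was higher in V71 by 0.48 (SE 0.09, adjusted p = 0.0226, limma), and in DF its values were 7.58 and 7.63 in PLKO and 8.24 and 8.32 in V71. The difference was 0.67 (SE 0.09, adjusted p = 0.00261, limma), and without moderation the adjusted p was 0.0596. Among the disulfide genes in NDF, PDIA5 had the largest difference that passed, at -0.58 (SE 0.11, adjusted p = 0.0222, limma).

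Of 23 measured genes of ER-associated degradation, 3 rose in PLKO, 1 rose in V71 and 0 fell, and none reached a fold of 1.5. The median change was 0.13 in PLKO and 0.05 in V71. UBE2J1, the ubiquitin-conjugating enzyme of the ER membrane, had values of 6.48 and 6.54 in PLKO NDF, 7.01 and 6.87 in V71 NDF, 7.05 and 7.01 in PLKO DF, and 7.30 and 7.24 in V71 DF. It rose by 0.52 in PLKO (SE 0.09, adjusted p = 0.00348, limma) and by 0.33 in V71 (SE 0.09, adjusted p = 0.0322, limma). In NDF it was higher in V71 by 0.43 (SE 0.09, adjusted p = 0.0334, limma).

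Of 12 measured sensors and transcription factors, 1 rose and 0 fell in PLKO, and 2 rose and 1 fell in V71. WFS1, an ER membrane protein that restrains ATF6, rose by 0.64 in PLKO (SE 0.13, adjusted p = 0.00826, limma). In V71 WFS1 rose by 0.54 (SE 0.13, adjusted p = 0.0191, limma), under the fold of 1.5. CREB3L4, named because of these counts, fell by 0.37 in V71 (SE 0.09, adjusted p = 0.0229, limma). The call of WFS1 in PLKO ends without PLKO NDF replicate 3 (0.54), without PLKO DF replicate 1 (0.56) or without moderation (adjusted p = 0.114, unmoderated fit). CREB3L2, a relative of ATF6 that serves the secretory pathway, rose by 0.65 in V71 (SE 0.11, adjusted p = 0.00297, limma). It was under the fold of 1.5 without V71 NDF replicate 2 (0.52), and its adjusted p was 0.0602 without moderation. In DF the sensor PERK (EIF2AK3) was lower in V71, at 5.44 and 5.50, than in PLKO, at 5.80 and 5.95, a difference of -0.41 (SE 0.09, adjusted p = 0.0271, limma). ATF6, named after its values were seen as the other gene of this list that passed there, was lower in V71 in DF by -0.38 (SE 0.09, adjusted p = 0.0425, limma).

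The outputs of PERK, among them ATF4, DDIT3 and TRIB3, numbered 10, of which 1 rose in PLKO and 1 fell in V71. DDIT3, the factor CHOP that links prolonged stress to cell death, had values of 4.71 and 4.80 in PLKO NDF and 5.16 and 5.04 in PLKO DF, and rose by 0.35 (SE 0.10, adjusted p = 0.0457, limma). ASNS, the asparagine synthetase, fell by 0.39 in V71 (SE 0.11, adjusted p = 0.0421, limma), and in DF it was lower in V71 than in PLKO, at -0.52 (SE 0.11, adjusted p = 0.0254, limma). The median of V71 minus PLKO over the 10 outputs was -0.18 in DF, beside 0.01 over all genes.

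In the list of translocation and signal peptide removal, with 20 measured genes, SEC61A2, a channel subunit, rose by 0.80 in PLKO (SE 0.08, adjusted p = 0.00018, limma) and by 0.82 in V71 (SE 0.08, adjusted p = 0.000187, limma). SSR3, a subunit of the translocon-associated complex, fell by 0.77 in PLKO (SE 0.10, adjusted p = 0.000878, limma) and by 0.48 in V71 (SE 0.10, adjusted p = 0.013, limma). These were the genes of this list that passed upon differentiation. Between the lines in DF, TRAM2 was lower in V71, at -0.54 (SE 0.12, adjusted p = 0.0355, limma).

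Of 18 measured genes of COPII vesicles and ER exit, 0 passed upon differentiation, and SEC24D, a cargo adaptor of the COPII coat, differed most between the lines. Its values were 6.79 and 6.78 in PLKO NDF, 5.93 and 5.89 in V71 NDF, 6.74 and 6.89 in PLKO DF, and 5.89 and 5.94 in V71 DF. DF minus NDF was 0.03 in PLKO and 0.01 in V71, so each line kept about the same level. V71 minus PLKO was -0.88 in NDF (SE 0.09, adjusted p = 0.000469, limma) and -0.90 in DF (SE 0.09, adjusted p = 0.000389, limma).

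The chaperones of the cytosol and mitochondria, 15 measured genes, gave no called gene. At the adjusted p 2 fell in PLKO and 1 fell in V71 upon differentiation, and 0 rose. HSPD1, the mitochondrial chaperonin, fell by 0.31 in V71 (SE 0.08, adjusted p = 0.0297, limma). It was lower in DF in PLKO too, at 8.94 and 8.98, against 9.27 and 9.28 in PLKO NDF. STIP1, which links HSP70 to HSP90, fell by 0.33 in PLKO (SE 0.08, adjusted p = 0.0267, limma). Between the lines in DF 2 were higher in V71 and 0 lower, beside 6.51% of all genes that passed. The small heat shock protein HSPB1 was higher in V71 there by 0.42 (SE 0.09, adjusted p = 0.0328, limma). STIP1, added after its values were seen, stood at 8.02 and 8.08 in PLKO DF and at 8.43 and 8.46 in V71 DF. The median change upon differentiation was 0.09 in PLKO and 0.18 in V71.

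The other genes with an exact ERSE went both ways. Of 15 such genes outside the 10 that were measured, 6 had a negative and 9 a positive change in PLKO, and 9 and 6 in V71. In each line 1 fell, SYNPO, and 1 rose, ERO1B, which were named because of these counts. The median over the 15 was 0.16 in PLKO and -0.04 in V71.

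Markers of cell type moved in the same comparisons. The mean over the 20 S-type markers was 5.07 to 5.08 in PLKO NDF, 4.54 to 4.62 in V71 NDF, 4.71 to 4.81 in PLKO DF and 4.45 to 4.56 in V71 DF. Of these markers 5 fell in PLKO and 3 fell and 1 rose in V71 upon differentiation at the adjusted p. Of all genes, 15.8% passed in PLKO and 16.5% in V71, in either direction. VIM fell by 1.74 and SNAI2 fell by 1.46 in PLKO, and in V71 NOTCH2 rose by 0.81 and FN1 fell by 0.58. In NDF 6 were lower in V71, among them PDGFRA at -2.55 and DCN at -2.14. In DF 3 were, with PDGFRA and DCN at -2.81 and -1.25. Between the lines 3.41% of all genes passed in NDF and 6.51% in DF, in either direction. The V71 values of DCN, 2.35 to 2.65, reached down to the 4th percentile of genes on an array, so the sizes of these differences of DCN are uncertain. In the interaction 4 of the S-type markers passed, beside 1.39% of all genes, all positive, with VIM at 1.44 and SNAI2 at 1.11. VIM was already low in V71 NDF, at 3.17 and 3.23, against 4.77 and 5.12 in PLKO NDF. Its values reached down to the 12th percentile of genes on an array, so the size of its interaction is uncertain. The mean over the 12 noradrenergic markers was 7.52 to 7.63 in PLKO NDF, 7.82 to 7.93 in V71 NDF, 7.56 to 7.65 in PLKO DF and 7.79 to 7.80 in V71 DF. At the adjusted p, 4 of these 12 markers rose and 4 fell in PLKO upon differentiation, beside 15.8% of all genes that passed. In V71 2 rose and 6 fell, beside 16.5% of all genes that passed, with a median change of -0.36 over the 12. The strongest changes of this list upon differentiation were those of CHGB, at 1.43, and DDC, at -1.09, in PLKO. In V71 the strongest changes were those of CHGB, at 2.22, and SLC18A1, at 1.22. Between the lines they were CHGA, at 0.99, and HAND1, at 0.95, in NDF, CHGB, at 1.58, and DBH, at -0.74, in DF, and CHGA, at -0.87, and CHGB, at 0.79 (adjusted p = 0.0939, limma), in the interaction. The part of the cell mixture in the changes of the 10 genes was not tested.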

How the data were processed

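Total RNA of 8 cultures of SHSY5Y lines was hybridised to Affymetrix Human Gene 1.0 ST arrays. The authors made the deposited log2 values by RMA, with Partek 6.5 named in the submitters' processing notes, and these values were used as they stand. RMA makes arrays alike in distribution, and it compresses small differences of dim rows. Which genome build the array was annotated on is not given in the sources used here.

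Of 28869 rows, 19310 carry 1 gene symbol, 1752 several and 7807 none, which gave 18377 genes, with the row of the highest mean standing for the 685 genes with several rows. The fit kept all rows. Samples were grouped by the codes in their titles. In limma 3.58.1 (R 4.3.3) a mean was fitted for each of the 4 groups, with moderated variances (4 residual and 5.43 prior degrees of freedom), and p was adjusted by Benjamini-Hochberg over all rows. Called genes had a fold of 1.5 or more and an adjusted p under 0.05, as in the methods, and counts at the adjusted p alone are given too. The fit was tested on simulated data. The number of arrays limits the precision, and the median residual SD was 0.0996. A level of a row was not set against that of another row.

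The 10 genes and all lists were chosen with earlier results of these data known, so no list was tested. The genes named from a list in a contrast are those called there, at most 4, or else the gene with the largest difference past the adjusted p; markers are named by the 2 that differ most. Listed genes without a row of their own were not used here. Promoters came from RefSeq (GRCh38.p14), matched by symbol: 12 entries for all 10 genes. The alternatives were other variance models, normalizations, filters, fold thresholds, array weights, a replicate block, only the arrays compared, and each array left out in turn. Some items, the gene targeted by the shRNA among them, are not reported here.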

Additional observations from a re-analysis of the deposited data

Results flagged for a closer look

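In HERPUD1 the change upon differentiation differed in direction between the lines, 0.24 in PLKO and -0.31 in V71, with both arrays of DF above both of NDF in PLKO and below them in V71. The difference between these changes was -0.55 (SE 0.13, limma, unadjusted p = 0.00228, adjusted p = 0.128), and over the alternatives it lay between -0.62 and -0.48. It did not pass the adjusted p in any of them. Of the 138 measured genes of the 8 lists, those of cytosolic chaperones included, 8, or 5.8%, ran in opposite directions without overlap, beside 4.17% of all genes.

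In PPIC the lines also changed differently upon differentiation, by an interaction of 0.76 (SE 0.12, limma, adjusted p = 0.0229). PPIC lay below the median gene on all arrays. It is the 1 gene of the 8 lists whose interaction passed, and it passed in 1 of the 8 fits with an array left out, the fit without PLKO DF replicate 2.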

How the results depend on the processing

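No result turned its direction past the test under any alternative. The 6 differences of the 10 genes that pass were recomputed 120 times in all, of which 78 passed and 42 did not, and differences that do not pass in the reported fit passed 15 times. Of 307 recomputed calls of genes of the lists, 269 stood and 38 were lost. The cause was not tested. Without a fold threshold the count of called genes among the 10 is that at the adjusted p, 3 in PLKO and 3 in V71 upon differentiation. With a trended and robust prior 5 passed in each line, and in V71 0 passed when only the 4 arrays compared were fitted. Leaving out 1 array gave 0 to 3 in PLKO, 0 to 2 in V71 and 5 to 7 for the mean over both lines. Without moderation 1 gene, DNAJB9, passed in V71 minus PLKO averaged over both conditions. Here a fit that lost an array of a group took its lone array to vary like the other groups.

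The methods of the study name no pairing of replicates. Replicate numbers were checked for it, a check that with 2 arrays per group cannot exclude pairing. Deviations of same-numbered arrays correlated at -0.176 in NDF, 0.188 in DF, -0.041 in PLKO and 0.156 in V71. With a replicate block 1 gene passed in PLKO, SEL1L, and 1 in V71, XBP1. In the mean over both lines 3 passed, DNAJB9, XBP1 and SEL1L, so that HSPA5, HSP90B1, PDIA4 and CALR were lost. Number 3 occurs only in NDF and number 1 only in DF. With this block the mean over both lines therefore rests on the arrays numbered 2 alone. The losses do not show an effect of replicate, which the block cannot separate here from the difference between NDF and DF. With the NDF numbers crossed, a block chosen after seeing the data, 2 passed in PLKO and 1 in V71.

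Counts of called genes in the lists moved as follows. At a fold of at least 2, 0 were called among ER chaperones, disulfide genes, sensors, translocation genes and COPII genes. Without a fold threshold there were 7 disulfide genes, 5 sensors, 3 degradation genes, 2 PERK outputs, 2 COPII genes and 3 cytosolic chaperones. Without moderation 1 ER chaperone and 0 sensors were called, and with the replicate block 1 sensor. Leaving out 1 array gave 1 to 3 ER chaperones and 1 to 2 sensors. The fit to only the 4 arrays compared cannot give an interaction.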

Other observations

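The gene whose values ran most like those of HSPA5 over the 8 arrays was NECAP2, an adaptor of clathrin vesicles, with Pearson's r of 0.9873, among 9179 genes with a mean above the median. SOX11 (0.9825), RCN1, a calcium-binding protein of the ER lumen (0.9818), the actin-binding profilin PFN1 (0.981) and RRP1B (0.9779) followed. These correlations describe 8 arrays in 4 groups, so a common difference between NDF and DF alone makes them high.

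Among the 45 pairs of the 10 genes the median r was 0.18. PDIA4 and CALR ran together most closely (0.9611), followed by HSPA5 and HSP90B1 (0.9214) and HSPA5 and XBP1 (0.8918). DNAJB9 ran against HSPA5 (-0.9233) and against XBP1 (-0.9221), and 21 of the 45 pairs had a negative r. All pairs share the same 8 arrays, and the values are a description.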
